A study of Mus musculus with 18 samples.

Results

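The DNA replication and S phase genes studied here are 39 genes, listed by name for their place in the copying of the genome, in livers of mice given carbon tetrachloride (CCl4). All 39 were found by symbol among the 23111 named genes of the arrays. RNA from the livers of 18 male C57Bl/6N adults was hybridised to Affymetrix Mouse Gene 2.0 ST arrays, with 6 groups and, by the labels, 3 mice in each. Treated mice received 1.6 g/kg CCl4 in olive oil into the abdomen 2 times a week for 2, 4, 6, 8 or 10 weeks and were killed 2 days after the last injection. By the labels these mice were 12, 14, 16, 18 and 20 weeks old, so that age and weeks of CCl4 cannot be told apart among them. The control mice are labelled healthy, at week 10 and 20 weeks of age, while the study's text calls them oil-treated in some places and untreated in another. Only the week 10 mice share their age, so week 6 and the other earlier groups also differ from control in age. No group carries an engineered allele, and RNA came from whole pieces of the right lobe.

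Before a cell copies its DNA, the origin recognition complex with Cdc6 and Cdt1 loads rings of Mcm proteins onto origins in G1, and Cdc45 and the GINS complex then turn each ring into a running helicase. Primase and polymerases lay down the new strands, held to the template by the sliding clamp Pcna, while ribonucleotide reductase and thymidylate enzymes supply the building blocks. In an adult liver most hepatocytes rest outside the cycle and re-enter it after injury, and many genes of this machinery are switched on through E2F factors as cells pass into S phase.

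Promoter sequences are shown for the 5 genes that passed the test at week 6, because many replication genes are known E2F targets. They were taken from RefSeq (GRCm38.p6), run 5′ to 3′ on the strand of the gene, and cover 250 bases before to 50 after its start. Capitals mark matches to the E2F motif, searched on both strands as TTTCCCGC, TTTCGCGC, TTTGCCGC or TTTGGCGC.
Mcm6 (chr1:128359656-128359955, minus strand): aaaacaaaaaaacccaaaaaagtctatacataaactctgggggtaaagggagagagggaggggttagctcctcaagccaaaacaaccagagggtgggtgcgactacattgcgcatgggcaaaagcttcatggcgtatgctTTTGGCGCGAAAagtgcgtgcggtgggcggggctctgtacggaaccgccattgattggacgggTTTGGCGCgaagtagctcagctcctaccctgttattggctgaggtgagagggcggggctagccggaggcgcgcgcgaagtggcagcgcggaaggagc
Mcm7 (chr5:138171834-138172133, minus strand): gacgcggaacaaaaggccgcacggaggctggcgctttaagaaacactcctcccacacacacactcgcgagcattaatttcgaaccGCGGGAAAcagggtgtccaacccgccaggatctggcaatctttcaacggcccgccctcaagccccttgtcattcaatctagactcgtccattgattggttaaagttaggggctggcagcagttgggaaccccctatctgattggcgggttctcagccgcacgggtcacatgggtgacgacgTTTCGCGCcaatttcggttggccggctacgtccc
Dnmt1 (chr9:20952574-20952873, minus strand): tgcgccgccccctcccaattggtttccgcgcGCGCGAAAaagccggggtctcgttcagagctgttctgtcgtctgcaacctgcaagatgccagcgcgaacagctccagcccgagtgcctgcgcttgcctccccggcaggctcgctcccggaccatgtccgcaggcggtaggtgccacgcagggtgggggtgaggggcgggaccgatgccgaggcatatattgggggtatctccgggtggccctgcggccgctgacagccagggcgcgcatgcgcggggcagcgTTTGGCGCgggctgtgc
Rrm1 (chr7:102441445-102441744, plus strand): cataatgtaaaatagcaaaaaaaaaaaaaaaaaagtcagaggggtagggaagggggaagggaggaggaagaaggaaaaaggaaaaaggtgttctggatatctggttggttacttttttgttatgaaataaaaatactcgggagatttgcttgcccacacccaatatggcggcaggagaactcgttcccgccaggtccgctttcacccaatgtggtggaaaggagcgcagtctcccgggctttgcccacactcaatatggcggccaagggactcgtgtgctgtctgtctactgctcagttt
Mcm10 (chr2:5012742-5013041, minus strand): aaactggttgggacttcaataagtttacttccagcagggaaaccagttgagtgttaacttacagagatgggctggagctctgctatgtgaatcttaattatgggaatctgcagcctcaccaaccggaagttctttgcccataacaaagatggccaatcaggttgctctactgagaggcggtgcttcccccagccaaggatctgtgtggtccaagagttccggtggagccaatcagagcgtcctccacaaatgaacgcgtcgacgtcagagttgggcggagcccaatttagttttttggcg

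Mcm6 holds 3 matches, of which the first 2 overlap, 1 on each strand. Mcm7 and Dnmt1 hold 2 each in the windows shown, whereas their other listed start sites had none. Rrm1 and Mcm10 had no match, which says only that these letters are not in these windows. The promoter table had windows for 32 of the 39 genes, 39 windows in all, and Mcm4, Gins1, Gins2, Pole, Prim2, Exo1 and Tipin had no entry. The motif was in 33.3% of the replication windows, in 5.26% of 19 windows of a list of mitosis genes and in 2.26% of all 32851 windows of the table. The CHR motif TTTGAA, known from genes of mitosis, ran the other way, at 10.3% of replication windows, 78.9% of mitosis windows and 17.9% of all windows. CCAAT was in 59.0% of replication windows, 84.2% of mitosis windows and 37.4% of all. The 13 genes with an E2F match are Mcm3, Mcm5, Mcm6, Mcm7, Cdc6, Cdt1, Orc1, Rfc3, Pole2, Pola1, Lig1, Uhrf1 and Dnmt1. Their median log2 change at week 6 was 0.63, against 0.35 for the 19 genes without a match and 0.66 for the 7 without an entry. These are descriptions, and a match is not evidence that a factor was bound.

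The deposited values are log2 intensities, 1 per gene, so that a difference of 1 is a 2-fold change, and levels of different genes are not set against each other because probes differ in brightness. Every array had a median of 4.35, and 15 of the 39 genes lay below it in control livers, so part of the machinery was measured near the dim end of the scale. At week 6, replicates 1 and 2 resembled each other closely: the differences between them had an SD of 0.137 over 500 variable and bright genes, against 0.347 to 0.832 in the 17 other pairs within groups. Over the 39 replication genes alone their SD of 0.25 lay inside the range of the other pairs, 0.176 to 0.685. The 2 arrays were averaged and entered once, so that 17 samples remain and week 6 has n = 2. Whether they come from 1 mouse cannot be told from the files. In 1 limma model over all groups, a gene was called when its fold change exceeded 1.5 and its p, adjusted over all 23111 genes by Benjamini and Hochberg, was under 0.05. Of the hepatocyte markers 10 of 10 were measured, and Alb was at 14.12, the top of the scale, on every array. In whole tissue, more cells of a type and more RNA per cell cannot be told apart.

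At week 6 most of the 39 listed genes stood above control. The shift was smaller in 46 further replication genes, with a median log2 change of 0.17 and 2 called higher. The log2 change was positive for 36 of 39 genes, with a median of 0.59 over the 39 and -0.02 over all genes, and it reached 3.07 for Mcm6. In 32 of the 39 genes each week 6 array lay above each control array, where 14.6% of all genes did so. After correction 4 genes rose, namely Mcm6, Mcm7, Rrm1 and Dnmt1, and 1 fell, Mcm10. Over all genes tested 4.84% were called at week 6, 2.98% higher and 1.86% lower. At an unadjusted p under 0.05 were 25 of the 39 genes, against 23.5% of all genes, and 24 of them were higher, against 10.7% of all genes. The 5 calls depend on single arrays: leaving out week 6 replicate 3 left 0, leaving out a control array left 1 or 2, and leaving out week 8 replicate 1 gave 11. With 18 separate arrays 15 genes were called and with the week 6 and control groups fitted alone 19.

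**Figure D1:**
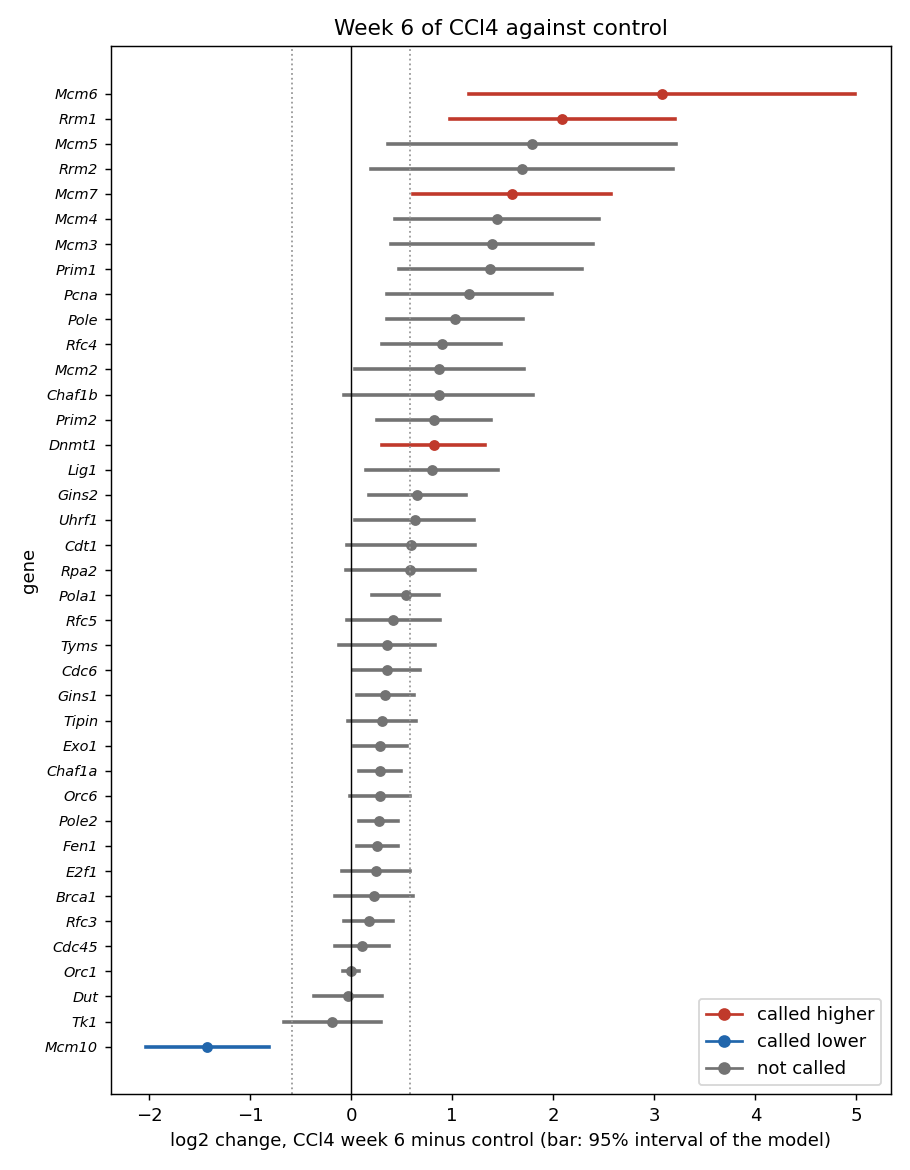
Log2 change of each of the 39 replication genes at week 6 of CCl4 minus control (horizontal axis) with the 95% interval of the limma model, 1 gene per row, ordered by size. Red genes were called higher, the blue gene lower, grey genes were not called, and dotted lines mark a fold change of 1.5. Only the interval of Mcm10 lies wholly left of 0, at a change of -1.42, and the change reaches 3.07 for Mcm6.

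Origin licensing had the largest shifts. The 10 licensing genes had a median log2 change of 1.13 at week 6, and 2 of them rose. Mcm6, a subunit of the Mcm ring, stood at 7.65, 7.59 and 7.60 in week 6 livers, against 4.18, 4.70 and 4.73 in control livers. Its values were 6.46, 7.31 and 5.70 at week 2, 5.35, 5.10 and 7.57 at week 4, 7.66, 5.04 and 6.17 at week 8, and 7.17, 7.31 and 5.0 at week 10. All 15 treated livers thus lay above all 3 control livers. Replicate 3 of week 4, at 7.57, was just below the lowest week 6 value of 7.59. Replicate 1 of week 8, at 7.66, was just above the highest, 7.65. Both high livers of week 10 stayed further below every week 6 array. The week 6 change was 3.07 ± 0.88 (SE, adjusted p = 0.0453, limma). Control values lay near the array median of 4.35, and no detection call was used here, so the change is as measured on the normalized scale. Mcm6 missed the threshold in each other week, at log2 changes of 1.95 at week 2, 1.47 at week 4, 1.76 at week 8 and 1.95 at week 10 (adjusted p = 0.248, 0.456, 0.334 and 0.178). The week 6 call of Mcm6 was lost in 8 of 18 fits that left out 1 array, with adjusted p up to 0.19 without week 6 replicate 3.

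Mcm7, another ring subunit, had 6.84, 7.04 and 6.26 in week 6 livers, against 4.86, 5.20 and 4.97 in control livers. The change of 1.59 ± 0.45 passed the test (adjusted p = 0.0429, limma). Outside week 6, Mcm7 had 5.59, 5.73 and 5.21 at week 2, 4.69, 4.78 and 6.00 at week 4, 6.42, 5.12 and 5.26 at week 8, and 5.74, 6.16 and 5.07 at week 10. At week 4 replicates 1 and 2 lay below every control array and replicate 3 above, so that the group as a whole overlapped control. The call of Mcm7 was lost in 8 of 18 fits without 1 array, with adjusted p up to 0.106 without control replicate 1.

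Mcm5 had 6.57, 6.72 and 6.04 in week 6 livers, against 4.60, 4.42 and 4.64 in control livers. It had 5.44, 5.97 and 4.69 at week 2, 4.91, 4.65 and 6.03 at week 4, 6.76, 4.52 and 5.05 at week 8, and 5.71, 6.28 and 4.42 at week 10. Groups did not overlap at week 6, yet the change of 1.79 ± 0.66 missed the threshold (adjusted p = 0.114, limma). The other ring subunits had log2 changes of 1.44 for Mcm4, 1.40 for Mcm3 and 0.87 for Mcm2, with adjusted p of 0.073, 0.0779 and 0.192. Every one of the 6 ring genes was above all controls in each week 6 liver. The loaders moved less: Cdt1, which escorts the ring to the origin, changed by 0.59 and Cdc6, the ATPase that helps load it, by 0.35. Orc6 and Orc1, of the origin recognition complex, had 0.29 and 0.00. Orc1 spanned only 3.96 to 4.10 over all 18 arrays and is the gene of the 39 that a filter on dim features removed.

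Helicase activation held the one gene of the 39 called lower at week 6. Mcm10, which helps to start the helicase and binds the polymerase that works with primase, had 5.87, 5.85 and 5.62 in week 6 livers, against 6.78, 7.22 and 7.49 in control livers. Its other values were 6.29, 5.58 and 6.11 at week 2, 5.90, 6.45 and 6.55 at week 4, 6.14, 6.25 and 5.99 at week 8, and 6.32, 5.75 and 6.58 at week 10. All 15 treated livers lay below all 3 control livers. The change was -1.42 ± 0.28 at week 6 (adjusted p = 0.00764, limma), a level 0.373 times that of control. At week 6, 18.4% of all genes had each array below each control. Mcm10 also fell at week 2 by 1.17 (adjusted p = 0.0286) and at week 10 by 0.95 (adjusted p = 0.0487), and averaged over all CCl4 weeks by 1.09 (adjusted p = 0.00497). At weeks 4 and 8 the values of -0.86 and -1.04 missed the threshold (adjusted p = 0.121 and 0.0567). Without 1 array the mean over all weeks kept its call in 18 of 18 fits and week 6 in 17, all but the fit without week 6 replicate 3 (adjusted p = 0.0706). The week 2 call was kept in 14 fits and lost in 4 (without control replicate 2 or 3, or week 2 replicate 2 or 3), and that of week 10 was kept in 6 and lost in 12 (adjusted p up to 0.168, without control replicate 3). At week 4, replicate 3 had the highest values of most of the 39 genes and also the highest Mcm10 of that week.

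Gins2, of the GINS complex, had 4.95, 5.08 and 4.69 in week 6 livers, against 4.18, 4.24 and 4.17 in control livers. At weeks 2, 4, 8 and 10 it had 4.53, 4.93 and 4.36, then 4.30, 4.25 and 4.75, then 4.94, 4.30 and 4.49, and last 4.62, 4.77 and 4.24. All treated livers but week 10 replicate 3 lay above all controls, and the week 6 change of 0.66 ± 0.22 was not called (adjusted p = 0.084, limma). Its partner Gins1 had 0.34 at week 6 and Cdc45, the helicase cofactor, 0.11.

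Of the 5 polymerase and primase genes 0 were called at week 6 by limma, and 5 had an unadjusted p under 0.05, where 23.5% of all genes did. Their median change was 0.82, and in each of them all week 6 arrays lay above all controls. Prim1, the catalytic primase subunit, had 5.31, 5.79 and 5.66 in week 6 livers, against 4.13, 4.24 and 4.32 in control livers. Elsewhere Prim1 had 5.06, 5.20 and 4.28 at week 2, 4.35, 4.20 and 4.87 at week 4, 6.02, 4.55 and 4.55 at week 8, and 4.72, 5.52 and 4.61 at week 10. Its highest value was that of week 8 replicate 1, and its change of 1.38 ± 0.42 at week 6 missed the threshold narrowly (adjusted p = 0.0566, limma). Pole, the catalytic subunit of the leading-strand polymerase, had 5.12, 5.62 and 5.17 in week 6 livers, against 4.19, 4.33 and 4.20 in control livers. For Pole the values were 4.86, 4.96 and 4.36 at week 2, 4.33, 4.32 and 4.84 at week 4, 5.51, 4.31 and 4.52 at week 8, and 5.05, 5.0 and 4.42 at week 10. The group means of Pole differed by 1.03 ± 0.31 (adjusted p = 0.0553, limma), and livers of weeks 4 and 8 overlapped control. Prim2, the other primase subunit, changed by 0.82 and Pole2, an accessory subunit, by 0.27. Pola1, the polymerase that extends primers, passed the adjusted p (0.0423) but at 0.54 stayed under the fold threshold of 0.585.

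Of the 7 clamp, clamp loader and flap genes the median change was 0.42 at week 6, and 0 were called by limma, with Pcna, Rfc4, Fen1, Lig1 and Exo1 at an unadjusted p under 0.05, against 23.5% of all genes. Pcna, the sliding clamp, had 10.83, 10.72 and 10.65 in week 6 livers, against 9.64, 9.61 and 9.37 in control livers. Pcna was at 10.23, 10.49 and 9.60 at week 2, 9.52, 9.38 and 10.40 at week 4, 10.68, 9.80 and 9.85 at week 8, and 10.29, 10.52 and 9.46 at week 10. Week 6 and week 8 livers were all above control, and at week 4 only replicate 3 was. The week 6 change of 1.17 ± 0.38 was not called (adjusted p = 0.0718, limma). Rfc4, of the loader that opens the clamp, had 4.65, 5.31 and 5.07 in week 6 livers, against 4.10, 4.12 and 4.16 in control livers. Rfc4 had 4.59, 4.85 and 4.22 at week 2, 4.07, 4.15 and 4.82 at week 4, 5.10, 4.40 and 4.35 at week 8, and 4.79, 5.10 and 4.42 at week 10. Only week 4 overlapped control, and the week 6 change was 0.90 ± 0.27 (adjusted p = 0.0556). Lig1, the ligase that seals Okazaki fragments, changed by 0.80, Rfc5 by 0.42 and Rfc3 by 0.17. The flap nuclease Fen1 had 0.26 and the exonuclease Exo1 0.29.

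The 3 genes of single strands and fork protection had a median change of 0.31 at week 6, and 0 were called by limma or reached an unadjusted p under 0.05. Rpa2, a subunit of the protein that coats single strands, had 5.50, 5.58 and 5.36 in week 6 livers, against 5.20, 4.85 and 4.54 in control livers. At weeks 2, 4, 8 and 10 Rpa2 had 4.95, 5.03 and 4.78, then 5.26, 4.91 and 5.42, then 5.72, 4.60 and 5.06, and last 5.41, 5.15 and 4.65. Outside week 6 its treated livers overlapped control in every week, and the week 6 change of 0.59 ± 0.30 was not called (adjusted p = 0.258, limma). Tipin, which steadies the fork with Timeless, had 4.34, 4.18 and 4.52 in week 6 livers, against 4.15, 4.07 and 4.02 in control livers. It had 4.07, 4.36 and 4.11 at week 2, 4.05, 4.13 and 4.65 at week 4, 4.33, 4.04 and 4.13 at week 8, and 4.24, 4.23 and 4.07 at week 10. The change was 0.31 ± 0.16 (adjusted p = 0.268), smaller than the spread of 0.60 between mice at week 4. Brca1, which also protects stalled forks, changed by 0.23.

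Of the nucleotide supply genes 1 rose at week 6. Rrm1, the large subunit of ribonucleotide reductase, had 7.39, 7.49 and 6.97 in week 6 livers, against 5.11, 5.27 and 4.95 in control livers. Rrm1 had 6.38, 6.66 and 5.74 at week 2, 5.26, 5.38 and 6.62 at week 4, 6.99, 5.43 and 6.17 at week 8, and 6.65, 6.96 and 5.53 at week 10. Of 15 treated livers only week 4 replicate 1 fell inside the control range. Rrm1 rose by 2.09 ± 0.51 at week 6 (adjusted p = 0.0231, limma) and by 1.25 ± 0.36 over all CCl4 weeks (adjusted p = 0.049), where it is the one gene of the 39 called higher and Mcm10 the one called lower, against 2.58% of all genes called. The first call was lost in 3 of 18 fits without 1 array (without control replicate 1 or 3, or week 6 replicate 3) and the second in 12, each control array among them. Rrm2, the small subunit made in S phase, had 8.00, 8.29 and 8.15 in week 6 livers, against 6.90, 6.22 and 6.24 in control livers. Rrm2 had 7.73, 7.95 and 6.58 at week 2, 6.41, 6.42 and 7.68 at week 4, 8.80, 6.34 and 6.79 at week 8, and 7.37, 7.64 and 6.08 at week 10. The highest value of Rrm2 was in week 8 replicate 1 and the lowest in week 10 replicate 3, and its week 6 change of 1.69 ± 0.69 was not called (adjusted p = 0.153).

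Tk1, the thymidine salvage kinase, had 7.45, 7.39 and 7.07 in week 6 livers, against 7.33, 7.41 and 7.54 in control livers. Tk1 had 7.17, 6.90 and 7.47 at week 2, 7.16, 7.0 and 7.40 at week 4, 7.20, 6.65 and 6.47 at week 8, and 6.93, 6.69 and 7.23 at week 10. It overlapped control at weeks 2, 4 and 6 and lay below every control liver at weeks 8 and 10. The changes there of -0.66 and -0.48 did not pass the test (adjusted p = 0.129 and 0.192, limma). Of all 23111 genes, 2589 at week 8 and 3357 at week 10 also had each array below each control array. Dut, which removes dUTP, had 5.90, 5.77 and 5.54 in week 6 livers, against 5.84, 5.56 and 5.75 in control livers. Dut had 5.79, 5.63 and 5.58 at week 2, 5.43, 5.60 and 5.49 at week 4, 5.74, 5.51 and 5.83 at week 8, and 5.79, 5.84 and 5.30 at week 10. Its week 6 change of -0.03 had a 95% interval of -0.36 to 0.30 and turned to 0.02 with 18 separate arrays, so that it had no direction. The change of Tk1 was -0.18, with an interval of -0.67 to 0.30. Tyms, thymidylate synthase, changed by 0.35 and had its highest group mean, 7.05, at week 4.

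Among the 4 chromatin genes 1 rose at week 6. Dnmt1, which copies methylation onto the new strand, had 6.80, 6.83 and 6.75 in week 6 livers, against 5.89, 5.94 and 6.06 in control livers. Its values were 6.24, 6.34 and 6.04 at week 2, 6.33, 6.11 and 6.65 at week 4, 6.63, 6.04 and 5.89 at week 8, and 6.82, 6.59 and 6.03 at week 10. Treated livers were all above control at weeks 4 and 6, and not at weeks 2, 8 and 10. The change of 0.82 ± 0.24 at week 6 passed the test (adjusted p = 0.0461, limma), a call lost in 10 of 18 fits without 1 array, with adjusted p up to 0.173 without week 6 replicate 3. Chaf1b, of the chromatin assembly factor that places new histones, had 5.47, 6.03 and 5.30 in week 6 livers, against 4.60, 4.77 and 4.61 in control livers. Chaf1b had 5.12, 5.57 and 5.12 at week 2, 4.94, 4.82 and 5.97 at week 4, 6.07, 4.73 and 5.04 at week 8, and 5.64, 5.64 and 4.53 at week 10. It lay above control throughout weeks 2, 4 and 6, and its change of 0.87 ± 0.43 was not called (adjusted p = 0.254). Uhrf1, which guides Dnmt1 to new DNA, had 0.63 and Chaf1a 0.29.

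E2f1, the transcription factor of the set, had 4.72, 4.85 and 4.79 in week 6 livers, against 4.63, 4.47 and 4.52 in control livers. E2f1 had 4.67, 4.55 and 4.56 at week 2, 4.63, 4.48 and 4.82 at week 4, 4.95, 4.66 and 4.54 at week 8, and 4.59, 5.14 and 4.64 at week 10. Its change of 0.25 ± 0.15 at week 6 was not called (adjusted p = 0.381, limma), and its highest value was in week 10 replicate 2.

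**Figure D2:**
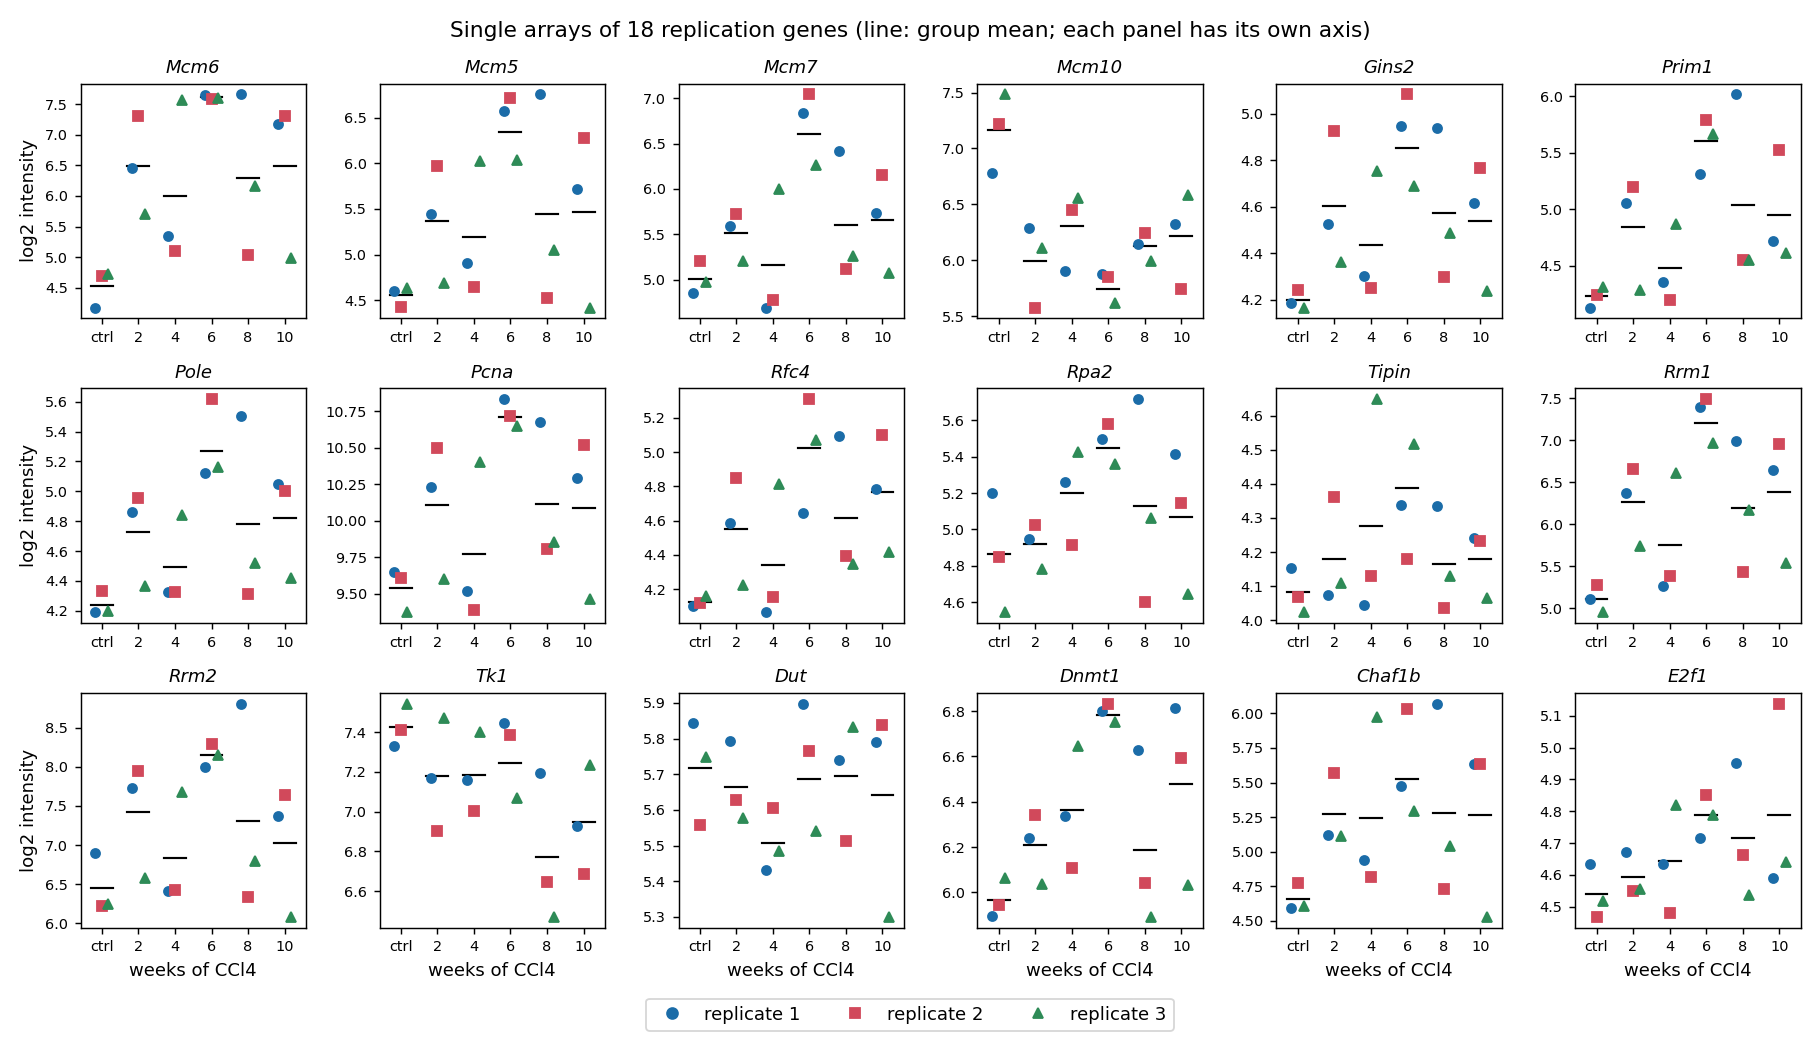
Log2 intensity (vertical axis, own scale in each panel) of 18 replication genes on every array, by weeks of CCl4 with control at the left, each point 1 liver and each line a group mean, with week 6 replicates 1 and 2 averaged first. Points of weeks 4, 8 and 10 spread widely for genes such as Mcm6, at 5.35, 5.10 and 7.57 at week 4, against 7.65, 7.59 and 7.60 at week 6.

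Outside week 6 few of the 39 genes passed the test. The test called 1 of the 39 at week 2, Mcm10, against 1.41% of all genes, and 1 at week 10, again Mcm10, against 2.07%. At week 4 the count was 0 by limma, with 2 at an unadjusted p under 0.05, where all genes gave 0.883% called and 13.7% unadjusted. At week 8 it was 0 as well, with 5 unadjusted, against 0.961% and 14.3% of all genes. Median changes of the 39 were 0.24 at week 2, 0.19 at week 4, 0.20 at week 8 and 0.23 at week 10, with 33, 33, 34 and 33 of the 39 positive. Each of these comparisons uses the same 3 control livers. Counts of genes with each treated array above each control array were 16 at week 2, 8 at week 4, 10 at week 8 and 9 at week 10, beside 9.81%, 8.16%, 9.60% and 11.1% of all genes.

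Direct comparisons between weeks gave 0 calls among the 39 by limma. Week 6 against week 4 had a median change of 0.34, with 37 of 39 positive and 9 at an unadjusted p under 0.05, beside 0.169% called and 12.8% unadjusted over all genes. Mcm7 had the lowest p of this comparison, at a change of 1.44 (adjusted p = 0.197, limma). Week 8 against week 6 had a median of -0.30, 36 of 39 negative and 2 unadjusted, Mcm7 and Dnmt1, beside 0.117% and 10.1%. Week 10 against week 6 also had -0.30, with 3 unadjusted, Rfc5, Prim2 and Fen1, beside 0.013% and 8.21%. Week 6 against the mean of the other CCl4 weeks had 0.31, with 9 unadjusted, beside 0.195% and 10.1%. The group mean was highest at week 6 in 33 of 39 genes, as it was in 19.3% of all genes. All were read in the same livers, so the 33 are not independent of each other and this count was not tested. The 6 others are Mcm10, Tk1 and Dut with control highest, Tyms with week 4, Cdc45 with week 8 and E2f1 with week 10.

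The spread between livers of 1 group differed among groups. The median SD over the 39 genes was 0.221 at week 2, 0.275 at week 4, 0.378 at week 8 and 0.344 at week 10, against 0.0982 in control. At week 6 it was 0.0912, from 2 values of which 1 is an average. Over the 3 arrays of each group the median range was 0.44 at week 2, 0.51 at week 4, 0.3 at week 6, 0.73 at week 8 and 0.66 at week 10, against 0.19 in control. Over all genes the median SD ran only between 0.0514 and 0.0799. At week 4, 34 of the 39 genes were above all controls in replicate 3 but 16 and 11 in replicates 1 and 2. Week 8 had 34, 12 and 23, week 10 had 32, 31 and 10, and week 2 had 30, 27 and 18. Week 6 had 35, 33 and 34, with replicates 1 and 2 nearly alike over the array, where 25.2% to 29.3% of all genes were above all controls on a treated array. The mean change of the 39 genes was 0.83 in week 8 replicate 1, above each week 6 liver (0.68, 0.80 and 0.65), but 0.01 and 0.15 in the other 2 livers of week 8. Week 8 replicate 1 held the highest value of the whole series for 12 of the 39 genes and week 6 replicate 2 for 13. Over all genes these arrays held it for 3.01% and 6.38%. At the other end, week 10 replicate 3 averaged -0.04 and had the lowest value for 9, and the control arrays for 5, 7 and 6. The share of all genes lowest on each array was not counted.

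**Figure D3:**
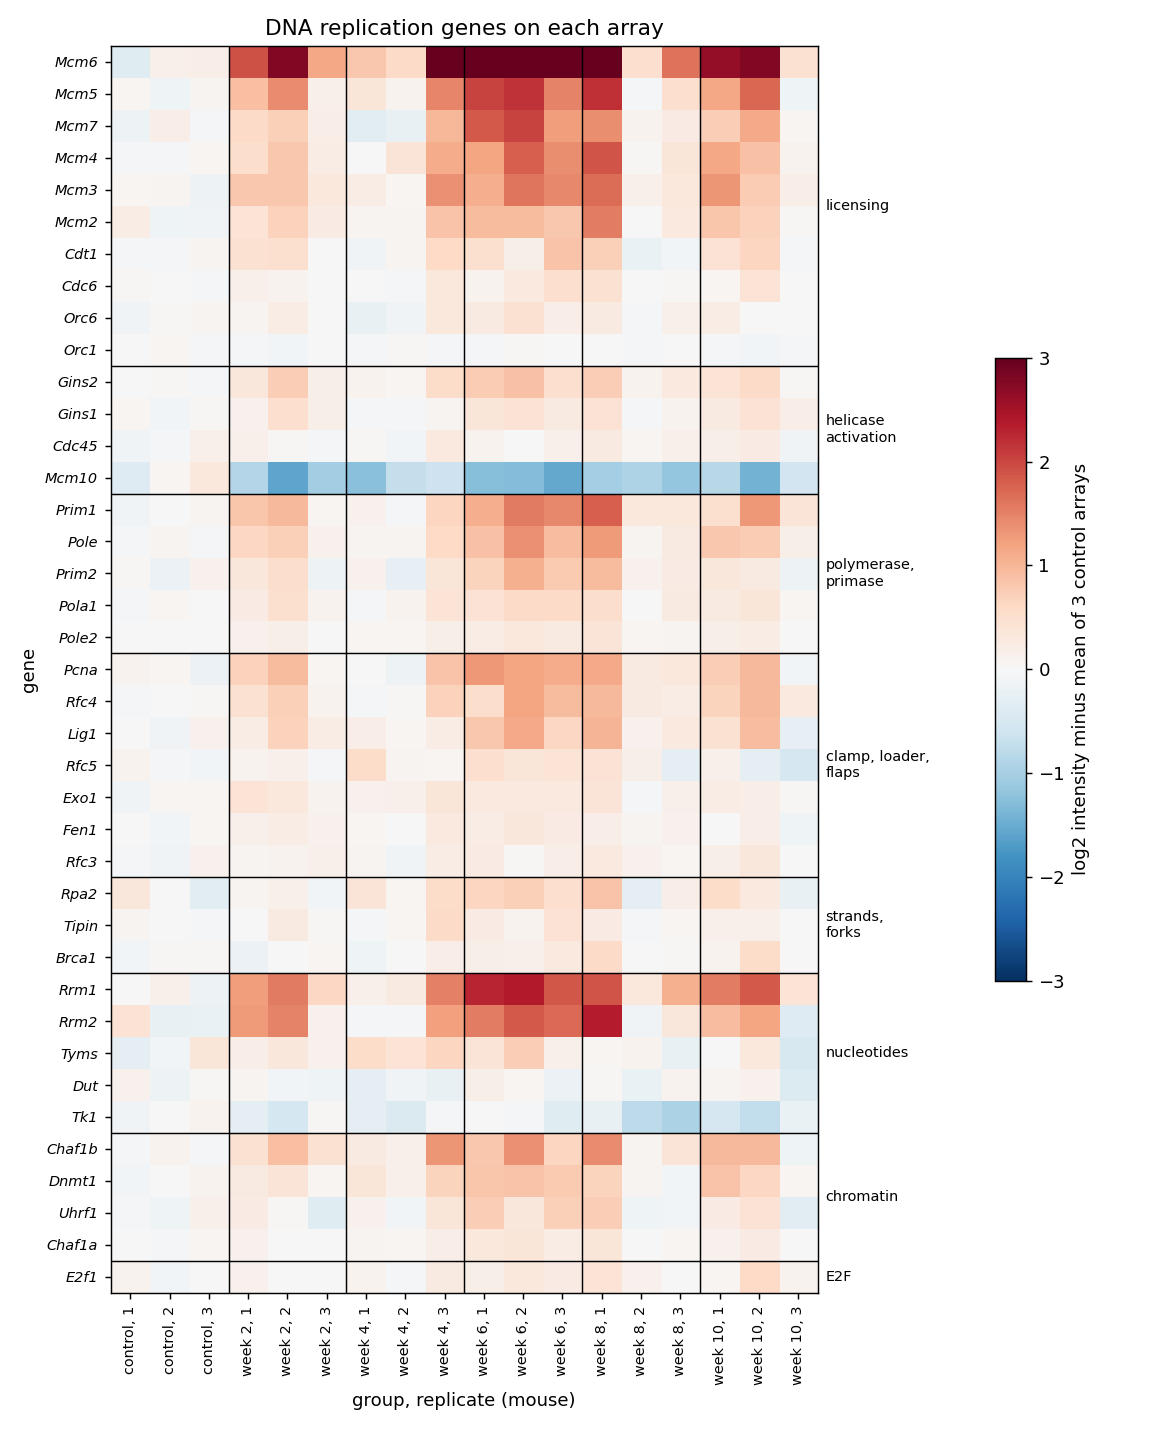
Log2 intensity minus the mean of the 3 control arrays (colour, capped at 3 either way) for the 39 genes in rows, grouped by role, and the 18 arrays in columns, from control to week 10. The week 6 columns are red throughout the Mcm ring. Week 8 replicate 1 resembles them, and week 4 replicate 3 comes near but lies below each week 6 array for Mcm4, Mcm5, Mcm7 and, narrowly, Mcm6. The Mcm10 row is blue in every treated column.

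Genes of mitosis, a list of 23 with 22 measured, were read beside the replication genes. At week 6 all 22 rose, beside 2.98% of all genes, with a median log2 change of 2.14. Among them were Ccna2, the cyclin of S and G2 phase, at 4.16, Mki67, the Ki-67 antigen of cycling cells, at 4.14, Ect2, which drives cytokinesis, at 4.06 and Ccnb2, a mitotic cyclin, at 3.85. Ccna2 had 8.22, 8.32 and 8.13 in week 6 livers, against 3.95, 4.05 and 4.15 in control livers, below the array median of 4.35. Mitosis genes also passed tests between weeks, where 0 of the 39 replication genes did. Of the 22, 5 were higher at week 6 than at week 4 and 4 lower at week 8 than at week 6. Another 2 calls were lower at week 10 than at week 6, and 7 were higher at week 6 than in the other CCl4 weeks. Over all genes 0.169%, 0.117%, 0.013% and 0.195% were called in these comparisons, in either direction. The difference between the lists was not itself tested. In week 8 replicate 1 the mitosis list averaged 1.05, against 2.31, 2.51 and 2.20 in the week 6 livers, while the replication list of that liver averaged 0.83, above theirs. In week 4 replicate 3 the mitosis list averaged 1.09 and the replication list 0.58.

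**Figure D4:**
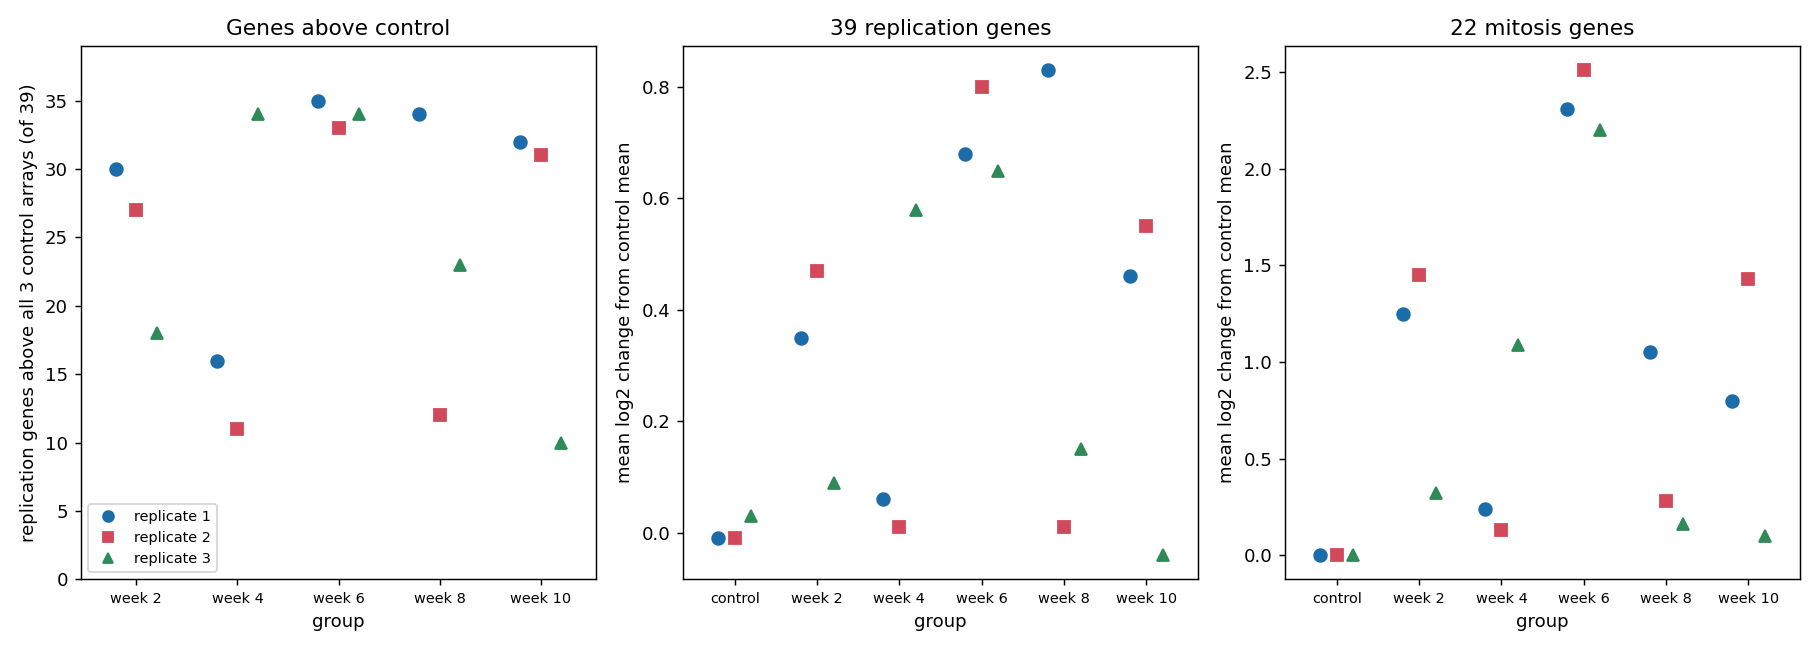
Per liver, the number of the 39 replication genes above all 3 control arrays (left), the mean log2 change of those 39 genes (middle) and of 22 mitosis genes (right), by group, each point 1 array, with control at the low end of the middle and right panels. Week 8 replicate 1 reaches 0.83 in the middle panel, the level of the week 6 livers, but 1.05 in the right panel, where those livers lie between 2.20 and 2.51.

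Other lists around S phase were read in the same way, beside 2.98% of all genes called higher at week 6. Of 46 further replication genes 2 rose, Dbf4, the activator of the kinase that fires origins, by 1.19 (adjusted p = 0.00918, limma) and Asf1b, a histone chaperone, by 0.71 (adjusted p = 0.0399), with a median of 0.17. Dbf4 had 5.28, 5.47 and 5.66 in week 6 livers, against 4.35, 4.20 and 4.44 in control livers. Of 30 genes of G1 to S control 4 rose at week 6, with a median of 0.11. They were Cdkn1a, the p21 inhibitor of cyclin-dependent kinases, by 4.31, Ccnd1, cyclin D1, by 2.25, Rbl1, the p107 pocket protein, by 1.25 and Cdkn2c, an inhibitor of the cyclin D kinases, by 0.59. Cdkn1a had 10.57, 10.50 and 9.52 in week 6 livers, against 5.51, 5.83 and 5.82 in control livers. Ccnd1 rose in every week, by 1.75 at week 2, 1.88 at week 4, 2.25 at week 6, 2.00 at week 8 and 1.91 at week 10 (adjusted p of 0.00722 to 0.034, limma). Ccnd1 had 9.02, 8.64 and 9.81 in week 4 livers, against 7.13, 6.99 and 7.71 in control livers. It was thus above control also in replicates 1 and 2 of week 4, whose 39 replication genes averaged only 0.06 and 0.01 above control. Of 21 genes of homologous recombination and the fork checkpoint 1 rose at week 6, Rad18, a ligase of damage tolerance, by 1.26, beside the same 2.98% of all genes, with a median of 0.29.

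Markers of non-parenchymal cells moved in the same livers, and their part in the results was not tested. At week 6, where 2.98% of all genes were called higher and 1.86% lower, 0 of 10 hepatocyte markers were higher and 1 lower, Cyp2e1. Several hepatocyte markers lay near the top of the scale. Higher were 7 of 8 measured macrophage markers and 7 of 10 stellate cell and myofibroblast markers, with medians of 1.5 and 1.41. Their mean change by array ran from 1.19 to 1.75 for macrophages and from 1.51 to 2.28 for stellate cells at week 6, against -0.38 to 0.31 and -0.15 to 0.21 in control. At week 8 the macrophage list averaged 1.10, 0.36 and 0.77 and the stellate list 1.02, 0.83 and 1.27, with the liver of highest replication values first. At week 4 the macrophage list averaged 0.97, 1.19 and 1.68 and the stellate list 0.86, 0.66 and 1.27, with that liver last. Week 2 differed, with 1.19, 1.54 and 1.54 for macrophages and 1.04, 1.3 and 0.86 for stellate cells. The replication means of those livers were 0.35, 0.47 and 0.09. At week 10 the macrophage list averaged 1.14, 1.15 and 0.71 and the stellate list 1.17, 0.81 and 1.04. There the replication means were 0.46, 0.55 and -0.04. Endothelial, cholangiocyte, T and NK cell, B cell, neutrophil and erythroid markers had 0 calls at week 6 by limma. Pancreas acinar markers averaged 1.65 in week 10 replicate 2 and between -0.20 and 0.08 on every other array, and without that array Mcm10 at week 10 was not called (adjusted p = 0.164).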

How the data were processed

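Liver RNA was hybridised to 18 Affymetrix arrays, 3 per group. Preprocessing by the authors used affyPLM with the Brainarray definition of Entrez genes, version 22, and they deposited log2 RMA intensities (RMA version not given in the sources used here). Such normalization forces arrays onto 1 distribution (17 of 18 share their sorted values) and compresses changes of dim genes. Values ran from 3.606 to 14.12, and the number of arrays limits the precision. Of 23748 features, 637 without a gene name were left out.

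Groups were compared with limma 3.58.1 (lmFit, eBayes; R 4.3.3) in 1 model with a mean per group and Benjamini-Hochberg adjustment over 23111 genes. The pipeline was tested on simulated data. SE is the model's. The genes, lists and rules were chosen with earlier results of these data known. Every array is printed for the 2 genes per role with the largest week 6 change, genes called in another comparison and genes of opposite sign at week 6, and of other lists at most 4 called genes are named. Mcm7 arrays and some genes of mitosis and G1 to S control were added after their values were seen. Alternatives were 18 separate arrays, a replicate block, other fold thresholds, groups fitted alone, limma-trend, array weights, a filter on dim features, 2 further normalizations, unnamed features kept, and each array left out. Motifs were counted in RefSeq promoter windows of 300 bases. Figures used Python 3.11.15 and matplotlib 3.10.9.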

Additional observations from a re-analysis of the deposited data

How the results depend on the processing

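Of 1289 refits of single genes 70 lost a call, 72 gained one, 4 were counted as reversed and 1143 as none of these. The 4 were all of Dut at week 6. Its log2 change of -0.03 became 0.02 with 18 separate arrays and 0.02 with the replicate block. It became 0.03 without control replicate 1 and 0.12 without week 6 replicate 3 (-0.11 to 0.12 without any single array). Direction was read from rounded changes, so Orc1 at week 6, at 0.001, could not be counted as reversed. Its change ran from -0.02 to 0.03 without any single array. The count of replication genes called at week 6, 5, became 15 with 18 separate arrays, 15 with those and the replicate block, 19 with the 2 groups fitted alone, 13 with array weights, 12 with dim features left out and 3 above an absolute log2 change of 1.5. Leaving out single arrays gave 0 to 11: 1 without control replicate 1 or 3, 2 without control replicate 2 or week 2 replicate 1, 3 without week 2 replicate 2, week 4 replicate 1 or week 10 replicate 1, 8 without week 4 replicate 3 or week 10 replicate 3, 10 without week 6 replicate 1, 11 without week 8 replicate 1 and 0 without week 6 replicate 3, where the lone week 6 sample is given the spread of the other groups. Week 2, with 1, had 0 above an absolute log2 change of 1.5 and with the groups alone, and 0 to 1 without an array. Week 8, with 0, had 1 (Mcm10) with 18 separate arrays, limma-trend, array weights or dim features left out, and 0 to 1 without an array. Week 10, with 1, had 0 above 2-fold, above 1.5 on the log2 scale and with the groups alone, and 0 to 1 without an array. All CCl4 weeks, with 2, had 0 above 1.5 on the log2 scale, 1 with limma-trend and 1 to 3 without an array. Week 4 and the comparisons between weeks had 0 under every alternative run. Apart from the construction of the alternatives the cause was not tested. Replicate numbers did not pair the mice: deviations of same-numbered arrays correlated at -0.007 on average over 45 pairs, 9 of them over 0.1, so the block is given only here. Of the 39 genes 38 passed the dim filter, all but Orc1.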
